A study of Mus musculus with 8 samples.

Results

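Cell cycle and proliferation genes were examined in the left ventricle (LV) of mice under pressure overload. The group holds 46 genes, each found by its symbol among the 46040 genes of the count table. They cover 2 proliferation markers, 8 cyclins, 4 cyclin-dependent kinases (CDKs), 5 CDK inhibitors, 8 replication licensing genes, 5 genes of DNA synthesis and nucleotide supply, 11 mitosis genes and 3 genes of transcriptional control. RNA was sequenced from LV tissue on day 14 of angiotensin II (angII) infusion at 0.1 mg/kg/h from osmotic minipumps, which raises the load on the heart and leads to LV hypertrophy. The mice were C57BL/6 males 5 to 7 months old, and all 8 received angII, so that no library shows the LV without it. Of the 8 libraries, 4 carry the tag of littermate controls with an intact *Flt1* gene and 4 the tag of VEGFR-1 TK-/- mice. VEGFR-1 is the vascular endothelial growth factor receptor encoded by *Flt1*, and the TK-/- allele lacks its intracellular tyrosine kinase domain in every cell of the mouse, not in a chosen cell type. The mice sequenced were survivors of the infusion.

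A dividing cell passes from growth to DNA replication and then to mitosis, driven by CDKs that are active only when bound to a cyclin. The D-type cyclins with CDK4 and CDK6 act on the retinoblastoma protein, which then releases E2F factors that switch on replication genes, whereas the genes of mitosis are expressed later in the cycle. CDK inhibitors hold the kinases back. Adult cardiomyocytes have largely left the cycle, and in the loaded heart the dividing cells are mostly endothelial cells, fibroblasts and leukocytes.

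For all 8 libraries the sample title states the opposite genotype of the genotype tag and the library name. Libraries are called here control-tagged and TK-tagged (for VEGFR-1 TK-/-) after tag and library name. Every difference is given as TK-tagged against control-tagged, and each direction reverses if the titles are right. *Flt1* itself was counted at 56.9 to 84.3 CPM (counts scaled to a common library size) in the control-tagged and 143.5 to 169.6 CPM in the TK-tagged libraries, which gave a log2 fold change of 1.19 (SE 0.12, FDR = 0.00808). A count over the whole gene also takes reads outside the deleted part and so does not check the labels. The library names mention cardiomyocytes while the source is LV tissue. Markers of cardiomyocytes, endothelial cells, fibroblasts, mural cells and leukocytes were all counted, and among the atrial markers *Sln* had at most 3 counts in any library. Total counts lay between 12349639 and 16239670 in the control-tagged and between 11449137 and 13505888 in the TK-tagged libraries, so that 1 CPM stands for 11.4 to 16.2 reads. The labels do not say more about the replicates than their numbers, so the tests measure the spread between these libraries.

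Most cell cycle genes had a lower mean level in the TK-tagged libraries, but none of the differences passed the test. Of the 46 genes, 38 were lower and 8 higher, with a median log2 fold change of -0.26, against 50.3% lower, 49.7% higher and a median of -0.00 over all 13542 genes tested. No member was called by the quasi-likelihood test of edgeR at an FDR under 0.1 and a change of at least 1.5-fold, where 0.00738% of all genes were called, which is 1 gene, *Flt1*. The smallest FDR of a member was 0.464. By the likelihood ratio test and by DESeq2, which called 0.391% and 0.236% of all genes, no member was called either, with smallest FDRs of 0.217 and 0.285. An unadjusted p under 0.05 was found for 11 and 9 members by these tests, against 1238 and 1174 of the 13542 genes in either direction. By the quasi-likelihood test it was found for 9 members, all lower, which is 19.6% against 5.64% of all genes lower, 3.32% higher and 8.96% in either direction. A mean at least 1.5-fold lower was found for 10 members, 21.7% against 2.4% of all genes, and for none in the other direction, against 1.2%. All 10 were among the 28 members with a mean under 10 CPM, 35.7% of these, where 5.66% of all genes at such levels were at least 1.5-fold lower and 3.02% at least 1.5-fold higher. Of these 28 members 8 (28.6%) had an unadjusted p under 0.05 and a lower level, against 5.38% of all genes at such levels, and none a higher level, against 2.72%. All 46 members passed the filter on low counts, none of them through 1 group only. As tissue was sequenced, fewer cells of a type and less RNA per cell cannot be told apart.

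The median difference was not the same in every role. The median log2 fold change was -0.58 for the proliferation markers and -0.58 for the mitosis genes, -0.45 for the genes of transcriptional control and -0.29 for the cyclins. It was -0.14 for DNA synthesis and nucleotide supply, -0.08 for the CDK inhibitors, -0.06 for replication licensing and -0.05 for the CDKs. With all 8 libraries the proliferation markers and the mitosis genes thus had the lowest medians. This order rested on control-tagged replicate 2. Without it the median was -0.40 for transcriptional control, -0.31 for the proliferation markers, -0.20 for the cyclins and -0.15 for the mitosis genes, so that the mitosis genes were no longer among the lowest. The median of transcriptional control, over 3 genes, was -0.17 without control-tagged replicate 3 and -0.29 without TK-tagged replicate 3. No test was run between roles.

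**Figure D1:**
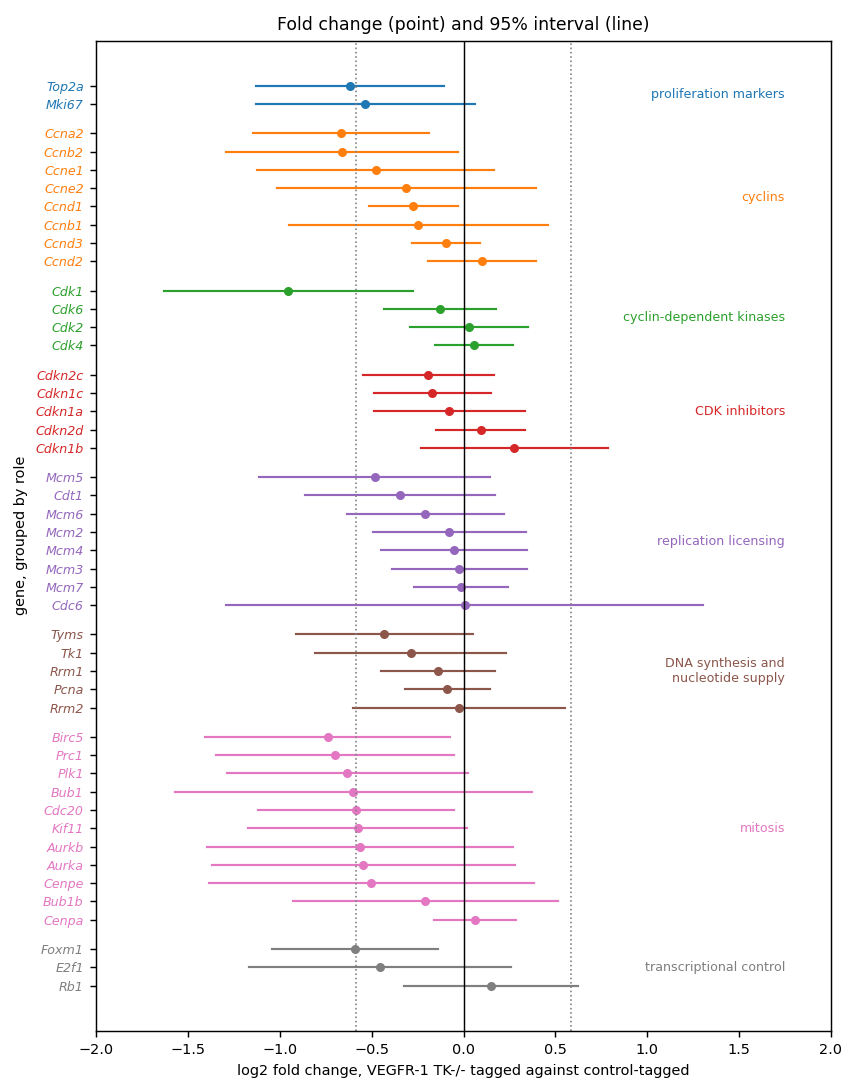
Log2 fold change of each of the 46 genes, TK-tagged against control-tagged (n = 4 libraries each), with points for the estimate of edgeR and lines for the 95% interval. Genes are grouped and coloured by role, and dotted lines mark a 1.5-fold change. The intervals of 9 genes lie wholly below 0 and none wholly above it, and the widest is that of Cdc6.

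The 95% intervals show how much these libraries can tell. The intervals of 17 members lay wholly within a 1.5-fold change in either direction, among them 4 of the 5 CDK inhibitors and 3 of the 4 CDKs. For 27 members the interval reached a change of 1.5-fold lower, including 10 of the 11 mitosis genes, and for 3 it reached 1.5-fold higher. The distance from the estimate to the end of its interval ran from 0.19 to 1.30 on the log2 scale. Raw counts of members ran from 2 to 3027 reads per library.

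A pair of libraries stood apart. Replicate 2 of the control-tagged group had the highest level of all 8 libraries for 30 of the 46 members, including 10 of the 11 mitosis genes. Its median deviation from the mean of all libraries was 0.43 on the log2 scale over all members and 0.99 over the mitosis genes. Replicate 3 of the TK-tagged group had the lowest level for 22 members, including 8 mitosis genes, with median deviations of -0.39 and -0.73. The other 6 libraries lay closer together, with medians over all members from -0.10 to 0.06.

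Much of the difference rested on these libraries. Without control-tagged replicate 2, the median log2 fold change of the members was -0.11 and that of the mitosis genes -0.15. Of the 46 members 1 was then at least 1.5-fold lower, against 257 of the 13407 genes tested. An unadjusted p under 0.05 was found for 3 members, against 1037 of the 13407 genes in either direction. The direction was kept by most, with 35 of 46 members and 9 of 11 mitosis genes lower. Without TK-tagged replicate 3, the medians were -0.19 and -0.47. In that fit 3 members were at least 1.5-fold lower, against 311 of 13510 genes, and 3 had an unadjusted p under 0.05, against 837. Leaving out TK-tagged replicate 4 brought the count with an unadjusted p under 0.05 down to 5, against 1340 of 13483 genes. The difference was not smaller. The medians of the members and of the mitosis genes were then -0.30 and -0.61. At least 1.5-fold lower were 13 members, against 509 of all genes tested. Leaving out control-tagged replicate 4 raised the count at least 1.5-fold lower to 16, against 398 of 13487 genes. The count with an unadjusted p under 0.05 rose to 12, against 1228 genes.

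**Figure D2:**
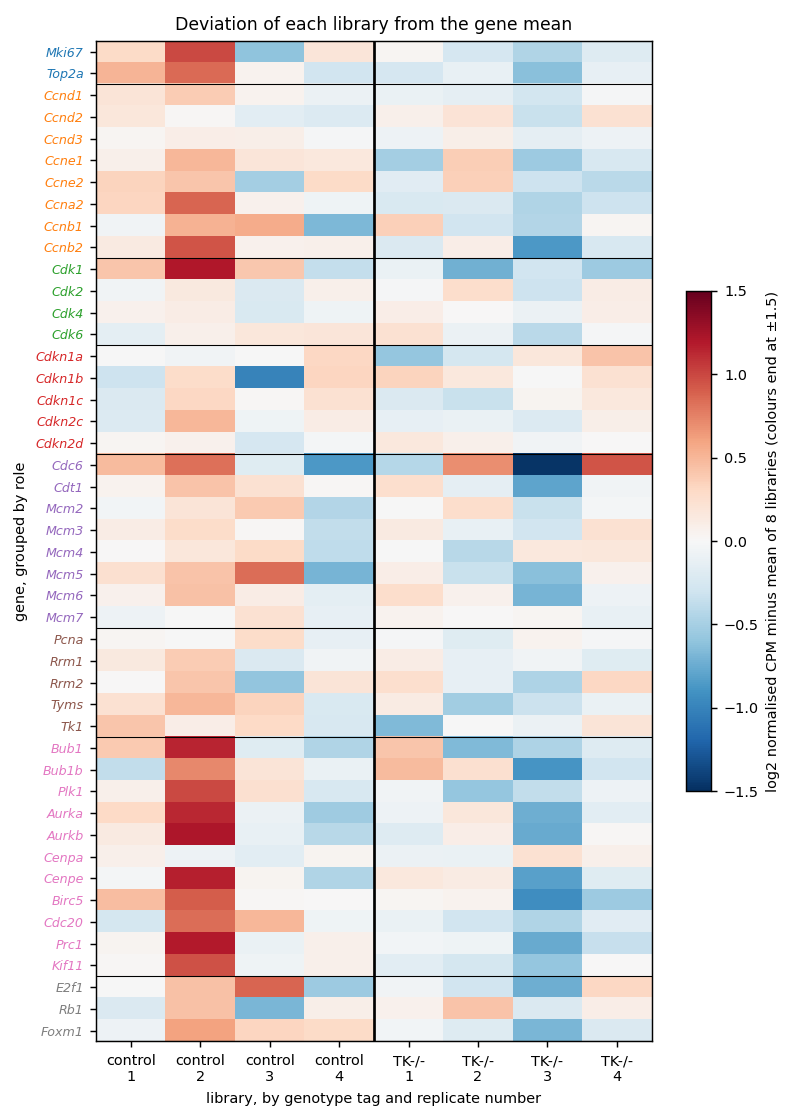
Deviation of each library from the mean of the 8 libraries for each of the 46 genes, on the log2 scale of normalised CPM, with red for higher and blue for lower. Columns are libraries by genotype tag and replicate number, and rows are genes in the order of their roles, coloured as in the plot of fold changes. Control-tagged replicate 2 is highest for 30 genes and TK-tagged replicate 3 lowest for 22.

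**Figure D3:**
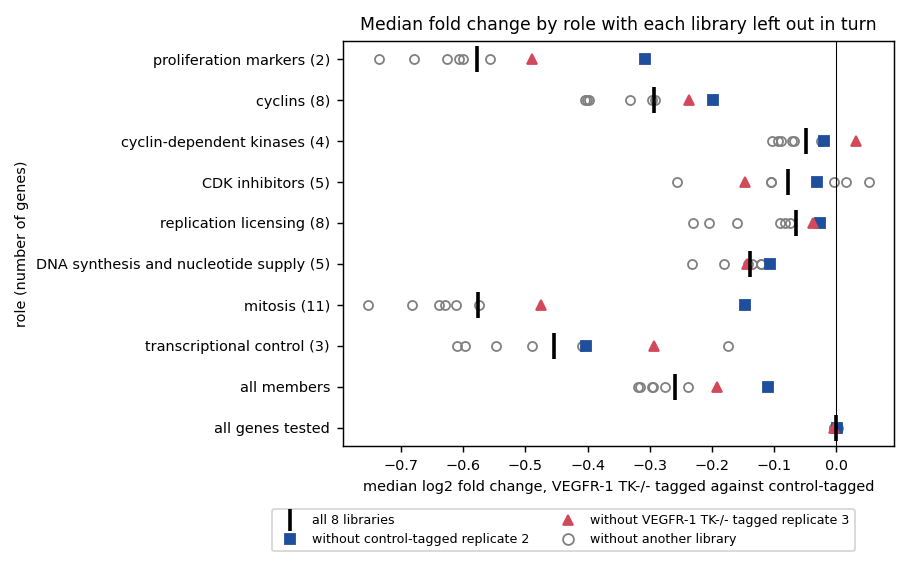
Median log2 fold change of each role, of all members and of all genes tested, with all 8 libraries (bars) and with each library left out in turn (symbols). The median of the mitosis genes goes from -0.58 to -0.15 without control-tagged replicate 2 (square), while the median of all genes tested stays near 0.

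The summed markers of leukocytes, fibroblasts, endothelial cells and cardiomyocytes had the same libraries at their ends, and those of mural and red blood cells did not. The summed level of 11 leukocyte markers was 367 to 482 CPM in the control-tagged and 250 to 366 CPM in the TK-tagged libraries. This sum was highest in control-tagged replicate 2 and lowest in TK-tagged replicate 3, and *Lyz2*, with a mean of 220 CPM, held much of it. By single markers, control-tagged replicate 2 was the highest library for 4 of the 11 and TK-tagged replicate 3 the lowest for 5. TK-tagged replicates 1 and 2 were each the highest for 2. Of these markers 8 were lower, 2 with an unadjusted p under 0.05. The 7 fibroblast markers summed to 1197 to 1878 CPM and 606 to 1540 CPM, with the same libraries at the ends, and TK-tagged replicate 3 was the lowest library for all 7. The 8 endothelial markers summed to 2174 to 2675 CPM and 2052 to 2363 CPM. The sum was again highest in control-tagged replicate 2 and lowest in TK-tagged replicate 3. *Fabp4*, with a mean of 932 CPM, held much of it. By single markers, TK-tagged replicate 2 was the lowest library for 5 of the 8 and TK-tagged replicate 3 for 2. Control-tagged replicates 2, 3 and 4 had close median deviations of 0.20, 0.18 and 0.19. In all, 7 endothelial markers were lower, 3 with an unadjusted p under 0.05. The 6 markers of mural and smooth muscle cells summed to 1147 to 1652 CPM and 781 to 1261 CPM, highest in control-tagged replicate 3 and lowest in TK-tagged replicate 2, and 5 were lower, 3 with an unadjusted p under 0.05. The 8 cardiomyocyte markers summed to 64274 to 100400 CPM and 83260 to 102614 CPM, with control-tagged replicate 2 lowest and TK-tagged replicate 3 highest. Only 2 of these 8 were lower, and their median log2 fold change was 0.18. *Tnni3* and *Pln*, each higher in the TK-tagged libraries, had an unadjusted p under 0.05. The red blood cell markers summed to 309 to 766 CPM and 359 to 601 CPM, highest in control-tagged replicate 2 and lowest in control-tagged replicate 1, and the 2 atrial markers that passed the filter to 3.68 to 5.69 CPM and 3.98 to 5.90 CPM. No marker of these lists was called. Over all genes an unadjusted p under 0.05 was found for 5.64% lower and 3.32% higher. The part of these cell types in the differences of the cell cycle genes was not tested.

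Levels per length of exon differed widely between the members. *Cdkn1a*, which encodes the CDK inhibitor p21, had the highest level at 51.5 CPM per kb, followed by the D-type cyclin *Ccnd1* at 24.2 CPM per kb and by *Cdk4* at 16 CPM per kb. *Ccnd2* followed at 14.6, *Pcna* at 13.4 and *Ccnd3* at 12 CPM per kb. At the other end stood *Cdc6*, which loads the replicative helicase onto DNA, at 0.161 CPM per kb. *Mki67* and *Top2a*, which mark cycling cells, had 0.997 and 0.963 CPM per kb. All but 1 of the mitosis genes lay below 3 CPM per kb, the exception being *Cenpa* at 7.03 CPM per kb.

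**Figure D4:**
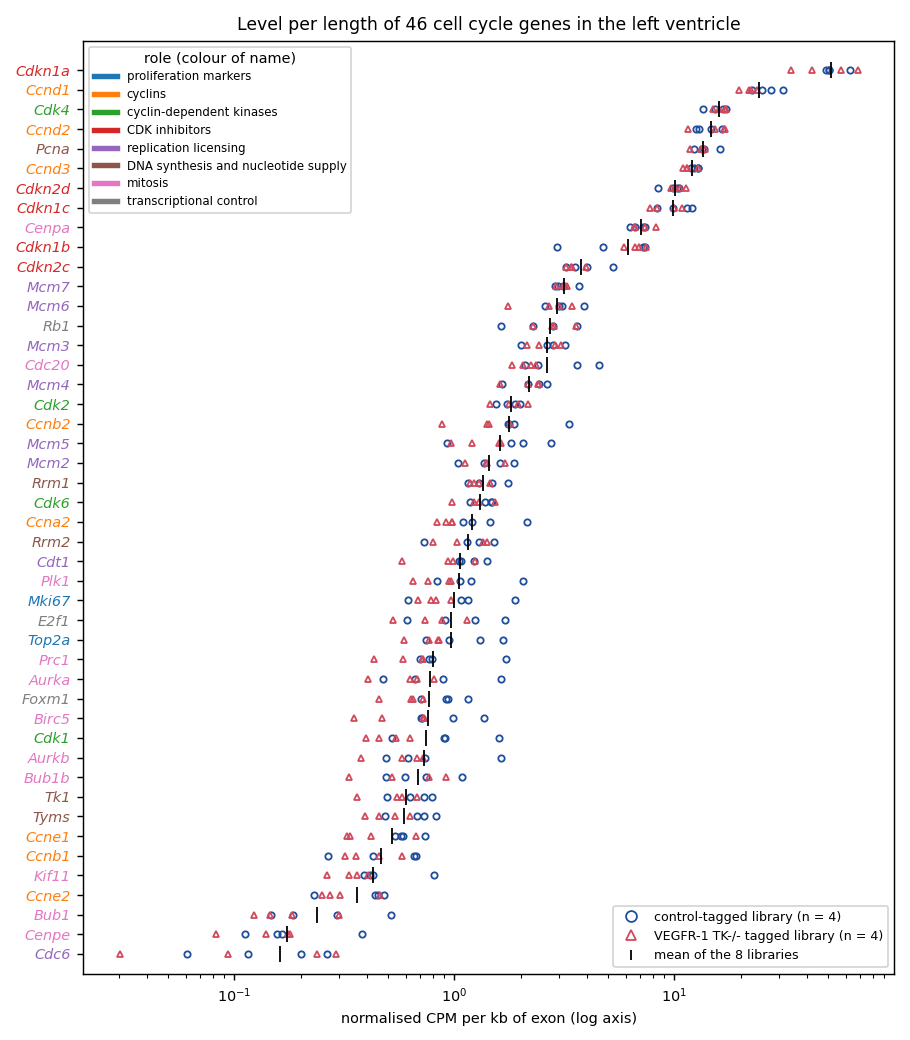
Level of each of the 46 genes per kb of exon, in normalised CPM on a log axis, with circles for control-tagged and triangles for TK-tagged libraries (n = 4 each) and bars for the mean of the 8. Names are coloured by role. Levels run from 0.161 for Cdc6 to 51.5 for Cdkn1a, and the symbols of both groups overlap for every gene but Ccna2.

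The promoters of the members are shown because genes of late and early cycle are known to differ in their promoter elements. The cell cycle genes homology region (CHR), read here as TTTGAA or TTCGAA, is bound by the complex that switches genes of mitosis on and off, often beside a CCAAT box. E2F factors bind elements such as TTTCGCGC or TTTGGCGC. RefSeq promoter windows of GRCm38.p6 were found for 37 of the 46 members, and the 250 bases before the start were searched on both strands. Adjacent matches may share an end letter. A CHR match was found in 10 of the 37 members (27.0%), and in 19.6% of the 27025 genes with a window. All 10 also held a CCAAT match, a pair found in 7.0% of all genes. CCAAT was found in 26 members (70.3%) against 37.5% of all genes, and in 9 of the 10 mitosis genes with a window. An E2F match was found in 3 members (8.11%) against 0.759% of all genes, namely *Cdk1*, *Mcm5* and *Mcm6*. Among the 8 members with a window that were at least 1.5-fold lower, 5 held a CHR match, and among the other members 5 of 29 did. That cut was made on these same data, and only 1 member met it without control-tagged replicate 2. By role, 4 of the 10 mitosis genes and 2 of the 7 licensing genes with a window held a CHR match. None of the 4 CDK inhibitors or 5 genes of DNA synthesis with a window held one. No test was run on these counts.

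Below are the 150 bases before the start, on the strand of the gene, of 4 genes with matches and 2 without, *Cdk4* and *Cdkn1a*, which had high levels per length. Lower members without a CHR match, such as *Birc5* and *Plk1*, are not shown. Nor are members with a CHR match and a log2 fold change near 0, such as *Mcm2* (-0.08) and *Mcm7* (-0.02). Capitals mark CHR, CCAAT and E2F matches on either strand. The windows are chr10:69352913-69353062 (minus strand) for *Cdk1*, chr4:118437344-118437493 (minus) for *Cdc20*, chr11:99024190-99024339 (minus) for *Top2a*, chr19:37376232-37376381 (plus) for *Kif11*, chr10:127063385-127063534 (plus) for *Cdk4* and chr17:29090829-29090978 (plus) for *Cdkn1a*.
Cdk1 promoter: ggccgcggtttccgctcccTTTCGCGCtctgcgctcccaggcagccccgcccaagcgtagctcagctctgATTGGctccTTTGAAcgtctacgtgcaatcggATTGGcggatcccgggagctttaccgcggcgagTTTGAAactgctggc
Cdc20 promoter: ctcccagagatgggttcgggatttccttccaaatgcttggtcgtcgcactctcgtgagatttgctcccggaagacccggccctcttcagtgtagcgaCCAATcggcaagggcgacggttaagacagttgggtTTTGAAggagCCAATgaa
Top2a promoter: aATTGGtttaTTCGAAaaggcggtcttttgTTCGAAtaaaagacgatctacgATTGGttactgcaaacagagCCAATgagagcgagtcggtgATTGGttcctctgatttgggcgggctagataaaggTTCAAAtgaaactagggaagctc
Kif11 promoter: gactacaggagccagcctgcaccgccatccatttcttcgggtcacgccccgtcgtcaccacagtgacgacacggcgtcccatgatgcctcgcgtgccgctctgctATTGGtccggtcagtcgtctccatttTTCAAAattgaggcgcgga
Cdk4 promoter: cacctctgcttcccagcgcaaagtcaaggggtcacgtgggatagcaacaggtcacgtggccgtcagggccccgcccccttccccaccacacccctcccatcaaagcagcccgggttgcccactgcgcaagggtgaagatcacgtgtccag
Cdkn1a promoter: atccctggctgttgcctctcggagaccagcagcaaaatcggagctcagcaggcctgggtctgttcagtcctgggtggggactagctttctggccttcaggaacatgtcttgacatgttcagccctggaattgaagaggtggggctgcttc
In these windows the CHR match next to the start began 15 bases before it in *Cdk1*, 18 in *Cdc20*, 23 in *Top2a* and 19 in *Kif11*. *Cdk1* held a further CHR match 71 bases and an E2F match 131 bases before the start. A match is a run of letters and not evidence of binding in these hearts.

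Both proliferation markers were lower without passing the test. *Mki67* (chr7:135689784-135716361, GRCm38) encodes Ki-67, a nuclear protein of cycling cells. Its level was 11.6, 18.9, 6.19 and 10.8 CPM in control-tagged replicates 1 to 4, and 9.67, 7.90, 6.87 and 8.29 CPM in TK-tagged replicates 1 to 4. The groups overlapped, as control-tagged replicate 3 was the lowest library of all. The log2 fold change was -0.54 (SE 0.27, FDR = 0.597). *Top2a* (chr11:98992943-99024189), the topoisomerase that untangles DNA in replication and mitosis, had 11.8, 15.0, 8.54 and 6.72 CPM in the control-tagged libraries and 6.91, 7.63, 5.29 and 7.57 CPM in the TK-tagged libraries. Here control-tagged replicate 4 lay among the other group. The log2 fold change was -0.62 (SE 0.23, FDR = 0.505), and -0.40 without control-tagged replicate 2. For *Mki67* that value was -0.21.

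Among the cyclins, 7 of 8 were lower, 3 of them with an unadjusted p under 0.05, and none was called. *Ccna2* (chr3:36564865-36572150) encodes cyclin A2, which acts in replication and entry into mitosis. Its level was 5.91, 8.71, 4.91 and 4.48 CPM in the control-tagged and 3.98, 3.99, 3.40 and 3.75 CPM in the TK-tagged libraries. It was the only member whose groups did not overlap, 2.17% of the members where 2.53% of all genes were separated in this direction, 2.46% in the other and 4.98% in either. The means were 6.00 ± 1.90 and 3.78 ± 0.28 CPM (SD, n = 4), with a log2 fold change of -0.67 (SE 0.22, FDR = 0.464). The exact permutation test gave p = 0.0286 (2-sided), the smallest that 4 against 4 libraries allow. Any gene without overlap gets this value, so it adds nothing to the separation. Leaving out control-tagged replicate 2 brought the log2 fold change to -0.43.

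*Ccnb2* (chr9:70407692-70421547) encodes cyclin B2, a partner of CDK1 in mitosis. It had 2.84, 5.08, 2.69 and 2.72 CPM in the control-tagged and 2.19, 2.75, 1.34 and 2.15 CPM in the TK-tagged libraries. Control-tagged replicate 2 was far above the other 3 libraries of its group, which lay close to the highest of the TK-tagged libraries. The log2 fold change was -0.66 (SE 0.29, FDR = 0.539), and -0.39 without that library. *Ccnd1* (chr7:144929931-144939925), the D-type cyclin with the highest level per length, had 129, 147, 117 and 106 CPM in the control-tagged and 105, 103, 93.0 and 112 CPM in the TK-tagged libraries. Only TK-tagged replicate 4 reached into the range of the control-tagged libraries. The log2 fold change was -0.27 (SE 0.11, FDR = 0.521), a smaller difference than that of *Ccna2* but at a much higher count. The other D-type cyclins differed less, with log2 fold changes of 0.10 (SE 0.13) for *Ccnd2* and -0.10 (SE 0.08) for *Ccnd3*. The E-type cyclins, which act at the start of replication, had a mean of at most 1.61 CPM in either group, with log2 fold changes of -0.48 for *Ccne1* and -0.31 for *Ccne2*. *Ccnb1*, the other B-type cyclin, had -0.25 (SE 0.32).

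Of the CDKs, only *Cdk1* had an unadjusted p under 0.05. *Cdk1* (chr10:69335146-69352938) encodes the kinase that drives mitosis, and its promoter holds both CHR and E2F matches. Its level was 4.49, 7.84, 4.44 and 2.56 CPM in the control-tagged and 3.09, 1.95, 2.69 and 2.23 CPM in the TK-tagged libraries. Control-tagged replicate 4 lay within the range of the other group. The means were 4.83 ± 2.20 and 2.49 ± 0.50 CPM (SD, n = 4), the lowest log2 fold change of all members at -0.95 (SE 0.31, FDR = 0.464). By the exact permutation test p was 0.0857 (2-sided), and leaving out control-tagged replicate 2 gave a log2 fold change of -0.62. *Cdk4* (chr10:127063534-127067920), a partner of the D-type cyclins, had 54.3, 55.8, 44.0 and 49.6 CPM in the control-tagged and 55.7, 51.8, 48.8 and 55.3 CPM in the TK-tagged libraries. The groups overlapped almost wholly, with a log2 fold change of 0.06 (SE 0.10, FDR = 0.896) and a 95% interval from -0.16 to 0.27. *Cdk2* and *Cdk6* had log2 fold changes of 0.03 (SE 0.15) and -0.13 (SE 0.14).

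The CDK inhibitors showed no common direction, with 3 of 5 lower, none with an unadjusted p under 0.05. *Cdkn1a* (chr17:29090976-29100727) had 178, 173, 178 and 223 CPM in the control-tagged libraries and 119.9, 149, 202 and 241 CPM in the TK-tagged libraries. The range of the TK-tagged libraries enclosed that of the control-tagged libraries, with SDs of 54.1 and 23.4 CPM. The log2 fold change was -0.08 (SE 0.19, FDR = 0.931). *Cdkn1b*, which encodes p27, had the highest log2 fold change of the members at 0.27 (SE 0.23). *Cdkn1c*, which encodes p57, and *Cdkn2c* and *Cdkn2d*, of the family that binds CDK4 and CDK6, lay between -0.19 and 0.09.

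Of the 8 licensing genes 7 were lower, with log2 fold changes from -0.48 to 0.01 and no unadjusted p under 0.05. Their median of -0.06 was -0.23 without control-tagged replicate 4, -0.20 without TK-tagged replicate 2 and -0.16 without TK-tagged replicate 4, and nearer 0, at -0.03 and -0.04, without control-tagged replicate 2 and TK-tagged replicate 3. The intervals of 4 of the 8 reached a change of 1.5-fold lower. *Mcm7* (chr5:138164583-138172422), a subunit of the helicase that opens DNA for replication, had 13.1, 13.7, 16.3 and 12.6 CPM in the control-tagged and 14.4, 13.8, 14.1 and 12.8 CPM in the TK-tagged libraries. The groups overlapped wholly and the log2 fold change was -0.02 (SE 0.12, FDR = 0.98). Of its partners in the helicase, *Mcm5* had -0.48 (SE 0.29), *Mcm6* -0.21 (SE 0.20), *Mcm2* -0.08 (SE 0.19), *Mcm4* -0.05 (SE 0.18) and *Mcm3* -0.02 (SE 0.17). *Cdt1*, a licensing factor, had -0.34 (SE 0.24). For *Cdc6*, with 2 to 19 reads per library, the interval of the log2 fold change from -1.29 to 1.30 covers more than a 1.5-fold change in either direction.

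Of the 5 genes of DNA synthesis and nucleotide supply all were lower, none with an unadjusted p under 0.05. Their median of -0.14 was -0.23 without control-tagged replicate 3 and -0.11 without control-tagged replicate 2. Only 4 of the 5 were lower without control-tagged replicate 2 or 4, or without TK-tagged replicate 2 or 3. *Pcna* (chr2:132249162-132253314), the sliding clamp of the DNA polymerases, had 32.6, 31.9, 38.8 and 29.3 CPM in the control-tagged and 31.6, 28.3, 33.2 and 31.7 CPM in the TK-tagged libraries. The groups overlapped, with a log2 fold change of -0.09 (SE 0.11, FDR = 0.838). The interval from -0.32 to 0.14 lay within a 1.5-fold change. *Tyms* and *Tk1*, which supply thymidine nucleotides, had -0.43 (SE 0.22) and -0.29 (SE 0.24). *Rrm1* and *Rrm2*, the subunits of ribonucleotide reductase, had -0.14 (SE 0.14) and -0.03 (SE 0.27).

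Of the 11 mitosis genes 10 were lower, 5 of them at least 1.5-fold and 3 with an unadjusted p under 0.05. *Birc5* (chr11:117849251-117855743) encodes survivin, a subunit of the chromosomal passenger complex. It had 3.37, 4.65, 2.42 and 2.40 CPM in the control-tagged and 2.44, 2.49, 1.19 and 1.59 CPM in the TK-tagged libraries, with a log2 fold change of -0.74 (SE 0.31, FDR = 0.522). The groups overlapped narrowly. *Cdc20* (chr4:118432901-118437352), which activates the ligase that ends mitosis, had 3.89, 8.49, 6.73 and 4.48 CPM in the control-tagged and 4.39, 3.82, 3.40 and 4.14 CPM in the TK-tagged libraries. Control-tagged replicate 1 lay within the other group, and the log2 fold change was -0.59 (SE 0.24, FDR = 0.522). *Prc1* (chr7:80294450-80316259) encodes a protein that bundles the microtubules of the central spindle. It had 6.29, 14.2, 5.72 and 6.48 CPM in the control-tagged and 5.93, 5.86, 3.56 and 4.78 CPM in the TK-tagged libraries. Control-tagged replicate 2 had more than any other library, and control-tagged replicate 3 lay within the other group. The log2 fold change was -0.70 (SE 0.30, FDR = 0.529), and -0.29 without control-tagged replicate 2.

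The next mitosis genes showed the same pattern of libraries. *Plk1* (chr7:122159439-122169873), a kinase of entry into and passage through mitosis, had 2.32, 4.50, 2.62 and 1.84 CPM in the control-tagged and 2.11, 1.42, 1.66 and 2.07 CPM in the TK-tagged libraries. This amounted to -0.63 on the log2 scale (SE 0.30, FDR = 0.565). *Kif11* (chr19:37376403-37421859) encodes the kinesin that pushes the spindle poles apart. It had 3.07, 6.02, 2.89 and 3.20 CPM in the control-tagged and 2.68, 2.49, 1.98 and 3.03 CPM in the TK-tagged libraries, with a log2 fold change of -0.58 (SE 0.27, FDR = 0.565). For both genes control-tagged replicate 2 was highest and another control-tagged library reached into the other group. Without that replicate their log2 fold changes were -0.32 and -0.26. *Cenpa* (chr5:30666777-30674830), the histone of the centromere, was the only mitosis gene that was higher. It had 43.3, 38.9, 36.7 and 42.3 CPM in the control-tagged and 38.7, 38.4, 48.1 and 43.1 CPM in the TK-tagged libraries, with a log2 fold change of 0.06 (SE 0.10, FDR = 0.884). TK-tagged replicate 3, the lowest library for 8 other mitosis genes, was the highest for *Cenpa*. The kinases *Bub1*, *Aurka* and *Aurkb* and the motor *Cenpe* had log2 fold changes from -0.60 to -0.50, and *Bub1b* of the spindle checkpoint -0.21 (SE 0.33).

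Of the genes of transcriptional control, *Foxm1* (chr6:128362967-128376146) encodes a factor that switches on genes of mitosis. It had 4.04, 6.61, 5.38 and 5.28 CPM in the control-tagged and 4.14, 3.73, 2.61 and 3.67 CPM in the TK-tagged libraries. Only control-tagged replicate 1 lay within the other group. The log2 fold change was -0.59 (SE 0.21, FDR = 0.476), and -0.47 without control-tagged replicate 2. *E2f1*, a factor that switches on replication genes, had -0.45 (SE 0.33). *Rb1* (chr14:73183673-73325822), which encodes the retinoblastoma protein, had 13.7, 21.6, 9.82 and 17.0 CPM in the control-tagged and 16.7, 21.5, 13.7 and 17.1 CPM in the TK-tagged libraries. The groups overlapped, with a log2 fold change of 0.15 (SE 0.22, FDR = 0.864).

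**Figure D5:**
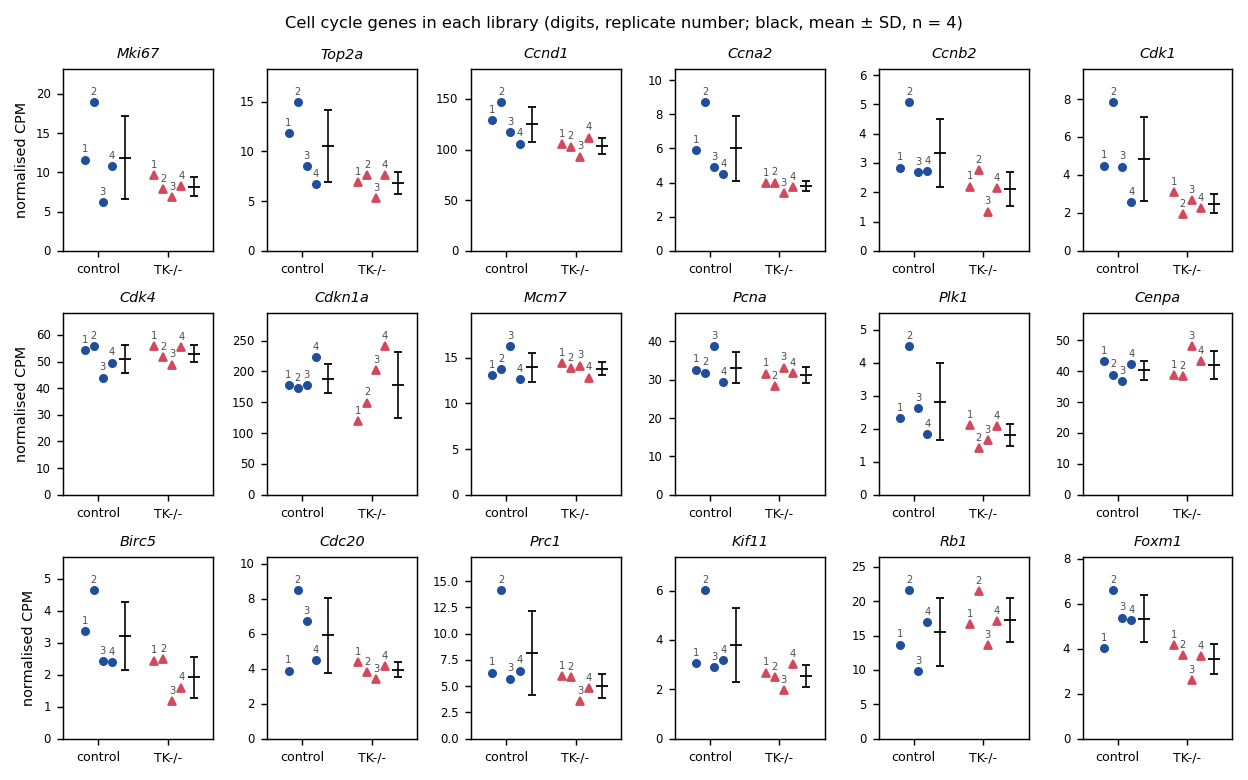
Normalised CPM of 18 cell cycle genes in each library, with circles for control-tagged and triangles for TK-tagged libraries, replicate numbers above the symbols, and black marks for the mean and SD (n = 4). Each vertical axis starts at 0. Replicate 2 is the highest control-tagged library in most panels, and the groups are separate only for Ccna2.

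Some members share exons with other genes. Exons of 18 members overlapped those of another gene, for 16 of them on the opposite strand. As the counting of strand is not stated, reads of these stretches cannot be told apart. The overlap was the longest in share for *Cdkn1c*, at 30.7% of its exon length, with *Gm44732*, which was not among the genes tested. It took 23.4% of *Ccnd1* with *LTO1*, whose log2 fold change of -0.17 had the same sign as that of *Ccnd1*. It took 2.84% of *Cdc20* with *Elovl1*, which had -0.31, again of the same sign. The overlap took 12.5% of the exon length of *Ccna2* with *Exosc9*, 19.7% of *Cdk4* with *Tspan31* and 11.1% of *Prc1* with *Rccd1*. The log2 fold changes of *Exosc9*, *Tspan31* and *Rccd1* were 0.05, 0.17 and -0.09.

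Other genes of the cell cycle, 131 in number, were read for comparison, and 122 of them passed the filter. None was called by any of the 3 tests. They were lower in 87 cases (71.3%, against 50.3% of all genes), with a median log2 fold change of -0.15, and 14 (11.5%, against 2.4%) were at least 1.5-fold lower. All 14 were among the 84 with a mean under 10 CPM, 16.7% of these, against 5.66% of all genes at such levels. The mitosis genes had the lowest median of these 3 lists, at -0.37 with 40 of 46 lower, against -0.06 with 24 of 40 lower for replication and -0.09 with 23 of 36 lower for other regulators. The medians of these lists were not computed with a library left out. An unadjusted p under 0.05 was found for 14 of the 122 (11.5%, against 8.96% of all genes), 8 of them lower and 6 higher. *Kif4*, a kinesin of the chromosome arms and central spindle, had the smallest p. It had 2.02, 3.27, 1.35 and 2.08 CPM in the control-tagged and 1.14, 0.71, 0.869 and 1.12 CPM in the TK-tagged libraries. The groups did not overlap, as for 6 of these genes in all (4.92%, against 4.98% of all genes), and the log2 fold change was -1.17 (SE 0.32, FDR = 0.442).

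*Kif23*, a kinesin of cell division, had 4.12, 5.66, 4.04 and 3.12 CPM in the control-tagged and 2.84, 2.84, 2.37 and 2.63 CPM in the TK-tagged libraries, again without overlap, with a log2 fold change of -0.67 (SE 0.21, FDR = 0.464). *E2f7*, a repressor of E2F targets, was likewise separate with -0.57 (SE 0.21, FDR = 0.492). *Fbxo5*, an inhibitor of the ligase that ends mitosis, had -0.79 (SE 0.27, FDR = 0.468) and the kinase *Pbk* -0.96 (SE 0.35, FDR = 0.488). In the other direction, *Rbl2*, a relative of the retinoblastoma protein that acts in resting cells, had 36.8, 39.9, 34.5 and 38.6 CPM in the control-tagged and 42.4, 45.8, 43.5 and 43.6 CPM in the TK-tagged libraries. These groups did not overlap, with a log2 fold change of 0.23 (SE 0.08, FDR = 0.497). *Pttg1*, which encodes securin, had 0.31 (SE 0.12, FDR = 0.514) and *Mcm8*, a helicase of DNA repair, 0.55 (SE 0.21, FDR = 0.506).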

How the data were processed

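Libraries of LV RNA from 8 angII-treated mice were analysed. The authors trimmed reads with Trim Galore 0.4.4, aligned them to GRCm38 with STAR 2.5.4b, and deposited whole-number counts from featureCounts per GENCODE M16 gene, not normalised. The counting of strand and of reads with several alignments is not given in the sources used here, nor is it clear whether RNA was rRNA depleted (labels) or poly-A selected (methods). If strand was ignored, reads where a gene overlaps an antisense gene may have been given to either gene or left out.

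Genes that reached a CPM of 1 in 2 or more libraries were kept. Counts were normalised by TMM (factors 0.917 to 1.12) and tested over all 13542 genes with edgeR 4.0.16 (quasi-likelihood F test) in R 4.3.3, all 8 libraries, no covariates. P-values were adjusted over all these genes by Benjamini-Hochberg (FDR), and a call needed an FDR under 0.1 and a change of at least 1.5-fold. The likelihood ratio test of edgeR, the study's own, was run as an alternative beside DESeq2 1.42.0, RLE factors, total counts, other filters and thresholds, a replicate block and leaving out each library. Single genes were also compared by an exact 2-sided permutation test over the 70 splits into 4 and 4, and promoters come from RefSeq. Scripts were tested on simulated counts. Within groups, chi-square over degrees of freedom between pairs of libraries was 6.77 to 49.9, so that none were duplicates. Levels per length use exon lengths of GENCODE M21 on GRCm38, as do gene coordinates.

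The 46 members and the other lists were chosen with earlier results of these data known. Values per library are given for the 12 members with the smallest unadjusted p, members without overlap, *Mki67*, *Top2a* and the member with the highest level per length of each role, and values are given for the 8 other cell cycle genes with the smallest p. The log2 fold changes of further members are given for their role and were not chosen by this rule.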

Additional observations from a re-analysis of the deposited data

Results flagged for a closer look

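Of the 26 named genes, each with 2 groups of 4 libraries, 4 of the 52 groups held a library far from the other 3 of its group, measured as its gap to the nearest library over the range of the group on the log2 scale. Chance alone marks about 1 in 20 groups. Control-tagged replicate 2 was the distant library for *Ccnb2* (0.913 of the range), *Kif11* (0.864) and *Prc1* (0.863), each time as the highest. Control-tagged replicate 4 was the distant, highest library for *Cdkn1a* (0.875).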

How the results depend on the processing

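No member and no other cell cycle gene was called under any of the alternatives. The number of genes called over the whole table went from 1 to 53 with the likelihood ratio test, 32 with DESeq2 and 23 without a filter on low counts, and lay between 1 and 3 with a library left out. DESeq2 gave an adjusted p for 27 of the 46 members. With a library left out, the median log2 fold change of the mitosis genes lay between -0.75 and -0.15 and that of the members between -0.32 and -0.11. The members without overlap numbered 1 to 7, as fewer libraries separate more easily. The share of all genes without overlap in those fits is not given, so this count cannot be read as more or less than that share. The numbers of members with an unadjusted p under 0.05 lay between 3 and 12, where those of all genes lay between 707 and 1356. Over 15 alternatives and 26 named genes, 383 values kept direction and side of the threshold, and 7 changed direction, each for a gene near 0 and only with a library left out. These ranges were -0.012 to 0.10 for *Cdk4*, -0.059 to 0.066 for *Mcm7*, -0.022 to 0.36 for *Rb1*, -0.26 to 0.072 for *Cdkn1a* and -0.010 to 0.10 for *Cenpa*. The medians of the small roles of CDKs and CDK inhibitors also crossed 0 with a library left out.

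The labels do not say whether same-numbered libraries are paired. The correlations of same-numbered libraries were -0.03, 0.03, 0.34 and -0.06, and only for replicate 3 was the same number the best match. Such correlations cannot show how the mice were matched. With the replicate number as a block 1 gene was called over the whole table and no member. The median log2 fold change of the members was -0.25 and that of the mitosis genes -0.53. In that fit 6 members were at least 1.5-fold lower, against 321 of 13542 genes. The cause of these shifts was not tested. At this depth 1 CPM is 11.4 to 16.2 reads, and 28 of the 46 members had a mean under 10 CPM.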
